A study of Mus musculus with 4 samples.

Results

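The 9 genes described here belong to the vascular basement membrane and the extracellular matrix, and they were followed through 4 coronal mouse brain sections measured by MERFISH, an imaging method that counts single mRNA molecules in place. The genes were listed by name (Col4a2, Fn1, Vwa1, Mmp2, Mmp9, Timp3, Itga1, Itga6 and Mgp), not chosen by their values, and they are 9 of the 383 genes of the probe panel. Of 114977152 transcripts in the cells kept, 816320 were transcripts of these 9 genes, a share of 0.710%. Timp3 alone gave 414556 of them, followed by Fn1 with 99234, whereas Mmp9 with 13128 and Mmp2 with 9181 were among the rarest genes of the panel.

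The basement membrane is a thin sheet of matrix on which endothelial cells sit and which wraps pericytes and smooth muscle cells. In the brain a further sheet, made with the help of astrocyte endfeet, faces the tissue, and fibroblasts lie between both sheets around larger vessels and in the meninges. Col4a2 encodes a chain of collagen IV, the network-forming collagen of the sheet. Fn1 encodes fibronectin, a matrix glycoprotein, and Vwa1 encodes a matrix protein that binds perlecan. Mmp2 and Mmp9 are the gelatinases, metalloproteinases that cut collagen IV, and Timp3 is a matrix-bound inhibitor of metalloproteinases. Itga1 and Itga6 are integrin α chains that bind collagen and laminin, respectively. Mgp encodes matrix Gla protein, an inhibitor of calcification of the vessel wall.

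In the GENCODE M21 annotation of GRCm38, Col4a2 lies at chr8:11312805-11449287 and Fn1 at chr1:71585520-71653200. Vwa1 lies at chr4:155768149-155774698, Mmp2 at chr8:92827291-92853420 and Mmp9 at chr2:164940780-164955850. Timp3 lies at chr10:86300372-86349506, Itga1 at chr13:114953096-115101964, Itga6 at chr2:71745616-71858416 and Mgp at chr6:136872435-136875823. Fn1, Vwa1, Itga1 and Mgp are on the reverse strand and the other 5 on the forward strand. The files name the genes by symbol only, and which parts of each mRNA the probes bind is not given in the sources used here.

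The study compared young (2 months) and aged (18 months) mice, with 2 sections of each age (titled Young01, Young02, Aged01 and Aged02, here Young 1, Young 2, Aged 1 and Aged 2) through the striatum of both hemispheres. The study's methods name wild-type C57BL/6NTac mice, and the labels of these sections name no transgene or treatment. The labels do not give the animal or the sex of each section, and a supplementary legend of the study counts as many mice for its MERFISH astrocytes as there are sections. The p-values take sections, not cells, as replicates. In the age tests the spread between sections of 1 age is estimated together with that of the other panel genes, so it is not each gene's own spread alone. In the comparisons between classes the section is a block, and the p-values measure how class differences vary over the same sections. The sections differed in depth beside age: the median cell held 400 transcripts in Young 1, 325 in Young 2, 293 in Aged 2 and 215 in Aged 1, so both aged sections were shallower than both young ones, and depth and age cannot be told apart.

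Cells were clustered without the 9 genes, and the clusters were named from marker lists. Endothelial-like (10790 kept cells, between 2322 and 2870 per section), pericyte-like (1427), smooth muscle-like (1332) and fibroblast-like cells (302) made up the vascular classes. Astrocyte-like (16465), oligodendrocyte-like (19769), oligodendrocyte precursor-like (OPC-like, 2358) and microglia-like cells (5267) made up the glial classes. A cell with at least 3 detected markers of its own class and 3 of another was left out as mixed. This removed from 29.6% of fibroblast-like to 69.0% of pericyte-like cells among these 8 classes. In every class but the fibroblast-like one the share removed was highest in Young 1 and lowest in Aged 1. In endothelial-like cells it was 56.7% and 50.1% in the young and 43.5% and 50.2% in the aged sections. Its part in the age results was not tested, and none of the age calls reported below was kept with mixed cells included. The classes showed their own markers: pericyte markers summed to between 2140 and 2510 per 10000 transcripts in pericyte-like cells but to at most 248 in endothelial-like and 451 in smooth muscle-like cells. Among these 8 classes the fibroblast-like one is the exception given next.

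The fibroblast-like class is the smallest and the least clean, and all its values below rest on 93, 64, 58 and 87 cells in Young 1, Young 2, Aged 1 and Aged 2. It is a single cluster led by Aldh1a2, Aox3, Slc7a11, Itih5, Cp and Inmt, in which all 5 fibroblast markers were detected, with a median fold of 15.2 over the other cells. Smooth muscle markers stood 10.4-fold and pericyte markers 6.35-fold higher in the same cluster. Astrocyte markers summed to between 326 and 401 per 10000 in these cells, against between 85.8 and 110 in endothelial-like cells. Its fibroblast markers summed to between 221 and 378, below its astrocyte markers in 3 of 4 sections and below the 459 to 549 of OPC-like cells, which share the marker Pdgfra. A further 4828 cells in 5 clusters stayed unnamed. Of these clusters 4 were led by Aldh1a2 and 1 by Mgp, and together they held between 548 and 649 astrocyte and between 201 and 243 endothelial marker transcripts per 10000. The part of these other markers in the fibroblast-like values was not tested.

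Levels are given as transcripts of the gene per 10000 transcripts of all panel genes, summed over the kept cells of a class in a section, as mean ± SD of the 4 sections. They are shares of a chosen panel, and a gene's probe number and length can change how many of its molecules are seen, so levels are compared between cell classes and not between genes. The order of the classes is a description, in which neighbours are called apart when the ranges of their 4 sections do not overlap.

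**Figure D1:**
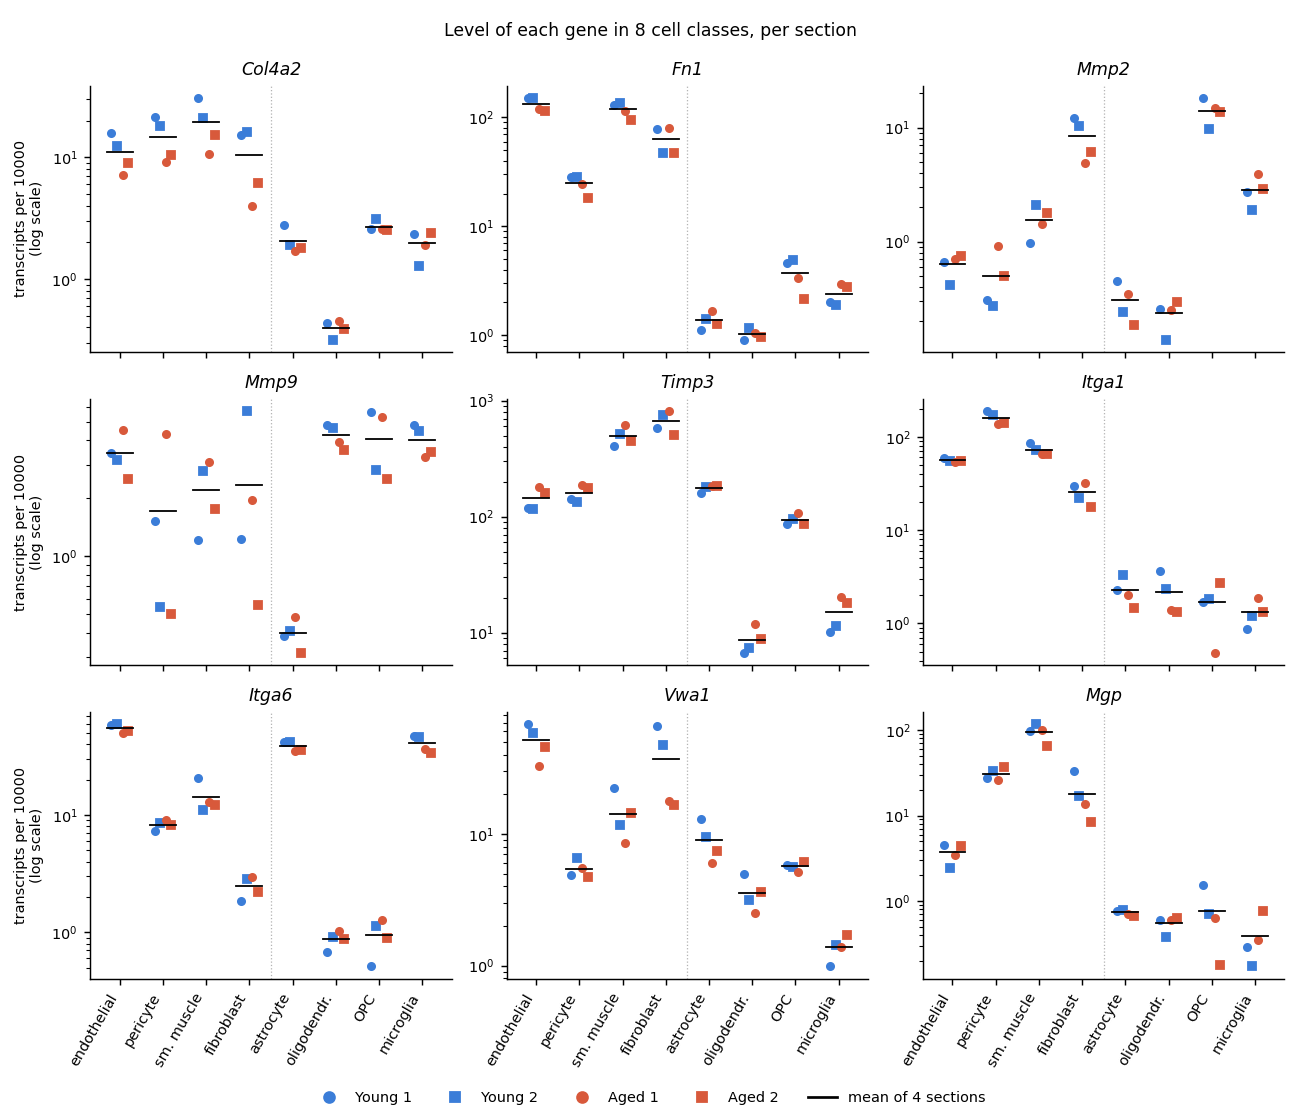
Level of each of the 9 genes (transcripts per 10000 panel transcripts, log scale) in 4 vascular classes, left of the dotted line, and 4 glial classes, right of it. Each point is 1 section (blue young, red aged) and each bar the mean of 4 sections. Fn1, Itga1 and Mgp were higher in every section of every vascular class than in any glial class, while Itga6 was also high in astrocyte-like and microglia-like cells and Mmp2 was highest in OPC-like cells.

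Among the structural proteins, Fn1 had its highest levels in endothelial-like and smooth muscle-like cells. In endothelial-like cells it was 150, 152, 120 and 113 per 10000 in Young 1, Young 2, Aged 1 and Aged 2, a mean of 134 ± 19.9. Smooth muscle-like cells held 119 ± 18.6, with a range that overlapped the endothelial one, and fibroblast-like cells followed at 63.1 ± 18.5. Pericyte-like cells, although they share the basement membrane with the endothelium, held only 24.9 ± 4.81, below every section of the 3 other vascular classes. Glial levels of Fn1 were low, from 3.76 ± 1.27 in OPC-like to 1.02 ± 0.113 in oligodendrocyte-like cells.

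Col4a2 was spread over all 4 vascular classes. It was 19.5 ± 8.66 per 10000 in smooth muscle-like, 14.8 ± 5.91 in pericyte-like, 11.1 ± 3.86 in endothelial-like and 10.4 ± 6.23 in fibroblast-like cells, and the ranges of all neighbours in this order overlapped. Between 4 and 25 Col4a2 transcripts per section stand behind the fibroblast-like value. All 4 classes lay above the glial ones, among which OPC-like cells held 2.68 ± 0.275 and oligodendrocyte-like cells 0.397 ± 0.0609.

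Vwa1 was highest in endothelial-like cells, at 67.8, 58.8, 33.0 and 45.9 per 10000 (mean 51.4 ± 15.2), and reached 66.1, 47.4, 17.8 and 16.7 in fibroblast-like cells (37.0 ± 24.1). In both classes the 2 young sections were above the 2 aged ones, and how many panel genes show this was not counted. Smooth muscle-like cells held 14.2 ± 5.88 and pericyte-like cells 5.41 ± 0.824, and the range of the latter overlapped those of astrocyte-like, OPC-like and oligodendrocyte-like cells. Among the glia, astrocyte-like cells held most Vwa1 (8.97 ± 3.04) and microglia-like cells least (1.38 ± 0.298).

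The proteinases did not follow the vessel wall. Mmp2 was highest in OPC-like cells, at 18.3, 9.69, 14.7 and 13.8 per 10000 (14.1 ± 3.52), and next in fibroblast-like cells at 12.2, 10.4, 4.93 and 6.12 (8.43 ± 3.47), with overlapping ranges. The fibroblast-like values rest on 20, 11, 5 and 11 transcripts, the OPC-like values on between 69 and 107. Endothelial-like cells (0.634 ± 0.148) and pericyte-like cells (0.497 ± 0.293, from between 1 and 4 transcripts a section) were lower than microglia-like cells (2.86 ± 0.824).

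Mmp9 was low everywhere and had no vascular peak. Its means ran from 4.25 ± 0.585 per 10000 in oligodendrocyte-like cells over 4.06 ± 1.63 in OPC-like, 4.01 ± 0.751 in microglia-like and 3.42 ± 0.850 in endothelial-like cells to 1.72 ± 1.80 in pericyte-like cells, and no neighbours in this order were apart. Astrocyte-like cells alone stood below all other classes, at 0.398 ± 0.0690.

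Timp3, the inhibitor, peaked in fibroblast-like and smooth muscle-like cells. It was 577, 752, 813 and 504 per 10000 in fibroblast-like cells (661 ± 145) and 495 ± 89.2 in smooth muscle-like cells, and both lay above all other classes. Astrocyte-like (177 ± 11.9), pericyte-like (160 ± 26.4) and endothelial-like cells (144 ± 32.0) had overlapping ranges. OPC-like cells held 93.8 ± 9.51, whereas microglia-like and oligodendrocyte-like cells held 14.9 ± 4.84 and 8.66 ± 2.30.

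The 2 integrin chains had different peaks. Itga1 was highest in pericyte-like cells, at 188, 172, 136 and 141 per 10000 (159 ± 24.9). Smooth muscle-like (72.2 ± 10.1), endothelial-like (55.7 ± 2.53) and fibroblast-like cells (25.3 ± 6.58) followed, and all neighbours in this order were apart. All glial classes held between 1.32 and 2.26 on average. Itga6 was highest in endothelial-like cells, at 58.1, 59.1, 49.9 and 51.9 (54.7 ± 4.54), and nearly as high in microglia-like (40.7 ± 6.80) and astrocyte-like cells (38.7 ± 3.51). Smooth muscle-like (14.2 ± 4.32), pericyte-like (8.29 ± 0.737) and fibroblast-like cells (2.47 ± 0.529) were well below, and OPC-like and oligodendrocyte-like cells held under 1 on average (0.953 and 0.874).

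Mgp was the most mural of the genes. Smooth muscle-like cells held 96.6, 116, 98.9 and 65.5 per 10000 (94.3 ± 21), pericyte-like cells 30.7 ± 5.01 and fibroblast-like cells 18.1 ± 10.6. Endothelial-like cells stood apart from these at 3.71 ± 0.959, and the glial means lay between 0.393 and 0.764, all 4 glial ranges being below the endothelial one.

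Shares of cells with at least 1 transcript, after each cell was thinned to 100 transcripts, gave the same leading classes for the abundant genes. Timp3 was detected in 96.4% of fibroblast-like and 94.3% of smooth muscle-like cells, against 78.5% of astrocyte-like and 7.73% of oligodendrocyte-like cells. Itga1 was detected in 73.8% of pericyte-like and 42.3% of endothelial-like cells, against 1.38% of microglia-like cells. Itga6 was detected in 41.5% of endothelial-like, 34.2% of microglia-like and 29.9% of astrocyte-like cells, against 0.790% of oligodendrocyte-like cells.

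The classes were then compared in 1 fit over 8 classes and 4 sections, with the section as a block (edgeR quasi-likelihood test, Benjamini-Hochberg adjustment over the 375 panel genes tested). A gene was called when its adjusted p was under 0.05 and it differed at least 2-fold. Differences are log2 values ± SE. Mean vascular against mean glial level was called higher for 6 of the 9 genes and lower for none, beside 31.2% of panel genes called higher and 26.7% called lower.

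Fibronectin, collagen IV and the collagen-binding integrin were among the genes that set vessels apart from glia. Fn1 was 5.22 ± 0.10 higher in the vascular classes (37.2-fold), Itga1 5.15 ± 0.14 (35.5-fold) and Mgp 5.14 ± 0.17 (35.2-fold). Col4a2 was 3.17 ± 0.14 higher, Timp3 2.95 ± 0.07 and Vwa1 2.28 ± 0.13, and the largest of these 6 adjusted p-values was 4.59e-17. These 6 calls were also made in every one of 14 alternative settings. The contrast is of class means, and astrocyte-like cells were not below every vascular class. Their mean Timp3 (177) exceeded that of pericyte-like (160) and endothelial-like cells (144). Their mean Vwa1 (8.97) exceeded that of pericyte-like cells (5.41). In each case the ranges of the sections overlapped. The laminin-binding chain Itga6 differed by 0.88 ± 0.15, under 2-fold, and the gelatinases gave 0.15 ± 0.19 for Mmp2 and -0.005 ± 0.39 for Mmp9.

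Endothelial-like cells differed from mural cells (mean of pericyte-like and smooth muscle-like) in 4 of the 9 genes. Vwa1 was 2.52 ± 0.18 higher in endothelial-like cells (5.75-fold), Itga6 2.33 ± 0.12 (5.03-fold) and Fn1 1.31 ± 0.12 (2.47-fold), while Mgp was 3.87 lower (log2 -3.87 ± 0.22, 14.7-fold). Over all genes 24.8% were called higher and 14.4% lower. For Fn1 the 2 mural classes were unlike. Smooth muscle-like cells (119) overlapped the range of endothelial-like cells (134), while pericyte-like cells held 24.9. Timp3 (-0.98 ± 0.12), Itga1 (-0.93 ± 0.17) and Col4a2 (-0.61 ± 0.17) were lower in endothelial-like cells at adjusted p-values of 1.80e-08, 1.36e-05 and 0.00156 but by less than 2-fold, so were not called. Timp3 passed 2-fold without Aged 1 and without Aged 2 (-1.03), and Mmp9 passed it without Aged 1 (1.26 in place of 0.78). With mixed cells kept, the difference of Fn1 was 0.28 and was no longer called, and with classes by marker score that of Mgp was -0.46 and was no longer called.

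Fibroblast-like cells held more of the gelatinase Mmp2 and of the inhibitor and less of both integrin chains than endothelial-like cells, while Mmp9 did not pass the test (-0.72 ± 0.52, adjusted p = 0.234 by edgeR). Mmp2 was 3.73 ± 0.34 higher (13.3-fold), Mgp 2.28 ± 0.31 (4.87-fold) and Timp3 2.21 ± 0.14 (4.64-fold), whereas Itga6 was 4.52 lower (log2 -4.52 ± 0.26), Itga1 gave -1.18 ± 0.25 and Fn1 -1.09 ± 0.16. These are 3 of 9 genes higher and 3 lower, beside 22.7% and 34.9% of all genes. The Mmp2 call was lost at resolution 1.0 of the second clustering (1.07) and with classes by marker score (0.44), where Mgp (-0.40) and Timp3 (-1.63) turned. The Itga1 call was lost under TMM scaling (-0.98) and with mixed cells kept (-0.87). The Fn1 call is close to the 2-fold limit and was lost in 6 of 12 alternatives, among them leaving out Young 2 (-0.93), and the difference was -0.003 when the 4828 unnamed cells were counted as fibroblasts.

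Against mural cells, fibroblast-like cells were higher in Mmp2 (3.21 ± 0.37), Vwa1 (2.00 ± 0.23) and Timp3 (1.24 ± 0.12) and lower in Itga6 (-2.19 ± 0.32), Itga1 (-2.11 ± 0.23) and Mgp (-1.59 ± 0.26). These are again 3 genes in each direction, beside 15.2% of all genes called higher and 26.7% lower. The lower Itga1 was called in all 12 alternatives. Each of the other 5 calls was lost under at least 2 other ways of drawing the class. With the unnamed cells counted in, Itga6 turned to 0.39 and Mgp gave -0.14, and with classes by marker score Timp3 (-0.34) and Vwa1 (-0.098) turned as well. At resolution 1.0 of the second clustering the Mmp2 difference was 0.29.

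Among the glia, astrocyte-like cells held more of the inhibitor and of the laminin-binding integrin, and less of both gelatinases, than the other glial classes on average. For Itga6 the range of microglia-like cells overlapped that of astrocyte-like cells, and for Mmp2 that of oligodendrocyte-like cells did. Against the mean of the 3 other glial classes, Itga6 was 3.56 ± 0.11 higher (11.8-fold), Timp3 2.97 ± 0.10 (7.84-fold) and Vwa1 1.53 ± 0.16 (2.89-fold). Mmp9 gave -3.36 ± 0.24 and Mmp2 -2.77 ± 0.21, both lower by at least 6.84-fold. These 5 calls (3 higher, 2 lower) stand beside 18.9% and 27.5% of all genes, with adjusted p-values of at most 1.93e-10, and of the 14 alternatives only keeping mixed cells lost one, that of Vwa1 (0.69).

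The members varied within the vascular classes as well as between them. The clusters of the vascular cells, built without the 9 genes, are described here without a test. In the 4 larger endothelial-like clusters (387 to 5604 kept cells) Fn1 was between 106 and 169 per 10000, Vwa1 between 47.5 and 65.8 and Itga6 between 50.5 and 67.0, with the highest value of each in the cluster of 3067 cells led by Adgrl4, Abcb1a, Slc16a4, Tnfsf10, Pltp and Klf2. A cluster of 285 endothelial-like cells that had grouped with medium spiny neurons held little of most members, for example 8.91 Fn1 and 4.39 Vwa1, but 44.6 Timp3.

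Smooth muscle-like clusters also differed among themselves. Their Itga6 ran from 1.48 ± 1.40 per 10000 in the cluster of 548 cells described below to 24.0 ± 5.80 in a cluster of 109 cells. A cluster led by Acta2, Mgp and Bmx (385 cells) held 233 ± 61.3 Fn1 and 239 ± 71.1 Mgp per 10000, with 12.9 Col4a2. A cluster led by Acta2, Myl9 and Ano1 (200 cells), the last a pericyte marker, held 53.9 ± 17.4 Fn1 and 42.0 ± 11.6 Mgp, with 27.6 Col4a2 and 117 Itga1. The cluster led by Acta2, Myl9 and Mgp (548 cells) had the highest mean Col4a2 of the vascular clusters (37.2 ± 23.4), with a wide spread over sections. The smallest cluster in the class (90 cells) is led by Cd74, an MHC class II chaperone, ahead of Acta2 and Aldh1a2, and its Timp3 of 262 ± 47.7 was the lowest of the class, with as few as 15 cells in a section.

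The unnamed Aldh1a2-led cells, as a whole, held 133 ± 7.14 Fn1 and 417 ± 49.8 Timp3 per 10000. One unnamed cluster of 349 cells, led by Mgp, Fxyd5, Fn1, Ahnak, Cd74 and Igfbp5, held more Fn1 (444 ± 113) and Mgp (244 ± 27.4) than any named class, with little Vwa1 (3.03), Itga1 (10.3) and Itga6 (1.44). It rests on at least 73 cells in each section. It carried too few of the fixed markers to be given a cell type.

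**Figure D2:**
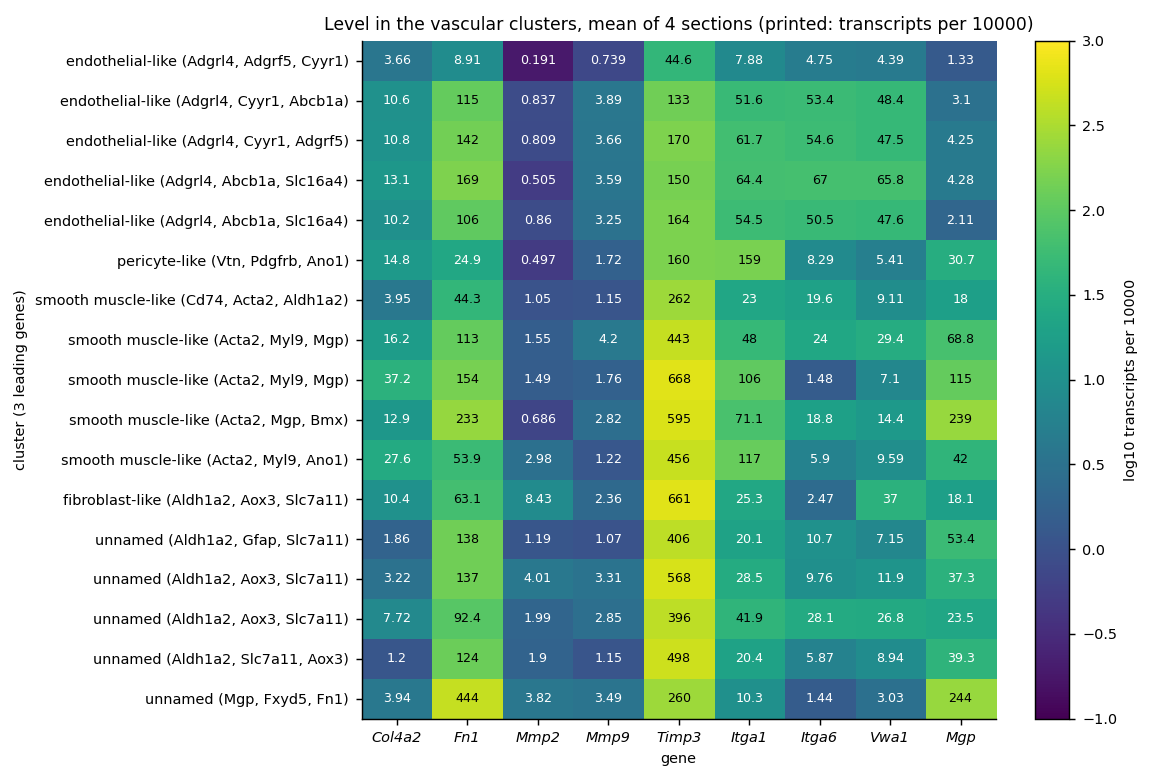
Mean level over 4 sections (printed, transcripts per 10000; colour, log10 scale) of the 9 genes in the vascular clusters with at least 15 cells in every section, each named by its class and 3 leading genes. Itga1 peaks in the pericyte-like row at 159, Mgp and Fn1 in the Acta2-, Mgp- and Bmx-led smooth muscle row and in the unnamed Mgp-led row.

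Over 13 cell classes, the members fell into a vascular group and a remainder. The mean log2 levels of Fn1, Itga1 and Mgp ran together most closely, with Pearson r of 0.91 for Fn1 with Itga1, 0.90 for Itga1 with Mgp and 0.88 for Fn1 with Mgp. Mmp2 and Itga6 had the least alike patterns (r = -0.13). These are descriptions over classes of the same 4 sections, with no test. Of all other panel genes, those most alike were Adgrf5 (0.96) and Klf2 (0.95) for Fn1, Rgs5 (0.97) and Adgrf5 (0.95) for Itga1, and Cnn2 (0.95) and Vtn (0.90) for Mgp. For Col4a2 they were Myl9 (0.86) and Podxl (0.82), and for Vwa1 Itm2a (0.83) and Cxcl12 (0.80). Timp3 was like Vcam1 (0.90), and Itga6 most like Slco1c1 (0.76) and Il10rb (0.75). Mmp2 was most like the OPC genes C1ql1 (0.86) and Pdgfra (0.85), and Mmp9 most like Picalm (0.76) and Gatm (0.74).

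Glial processes wrap vessels, and a transcript of a vessel can be assigned to a glial cell that touches it, so the glial levels were set beside the distance to the nearest vascular cell. Fn1 in astrocyte-like cells was 4.24 ± 1.72 per 10000 within 15 µm of a vascular cell and 0.81 ± 0.40 at 30 to 60 µm. In microglia-like cells it was 7.10 ± 0.93 against 1.83 ± 0.37, and in oligodendrocyte-like cells 2.78 ± 0.95 against 0.91 ± 0.16, and in each of these classes the sections' ranges at the 2 distances did not overlap. In microglia-like cells with no detected vascular marker Fn1 was 0.37 ± 0.11, against 2.41 ± 0.52 in all of them.

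Timp3 and Itga6 in astrocyte-like cells and Mmp2 in OPC-like cells showed no such peak beside vessels, but some members did in other glia. Within 15 µm against 30 to 60 µm, Timp3 was 16.5 against 8.13 in oligodendrocyte-like and 23.3 against 13.9 in microglia-like cells, with overlapping ranges. Itga6 in oligodendrocyte-like cells was 1.88 against 0.85 and Vwa1 in microglia-like cells 2.79 against 1.15, without overlap. Timp3 in astrocyte-like cells was 179, 175, 179 and 172 per 10000 with growing distance, and 162 ± 18.9 in the 3158 cells with no detected vascular marker. Itga6 was between 37.7 and 39.6 at every distance in astrocyte-like cells, with 29.8 ± 3.84 in those lacking vascular markers, and 42.7 ± 7.14 in microglia-like cells lacking them. Mmp2 in OPC-like cells was 14.8 ± 4.30 without vascular markers, against 14.1 ± 3.52 in all. Vwa1 in astrocyte-like cells had means from 8.53 to 9.31 at the 4 distances.

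**Figure D3:**
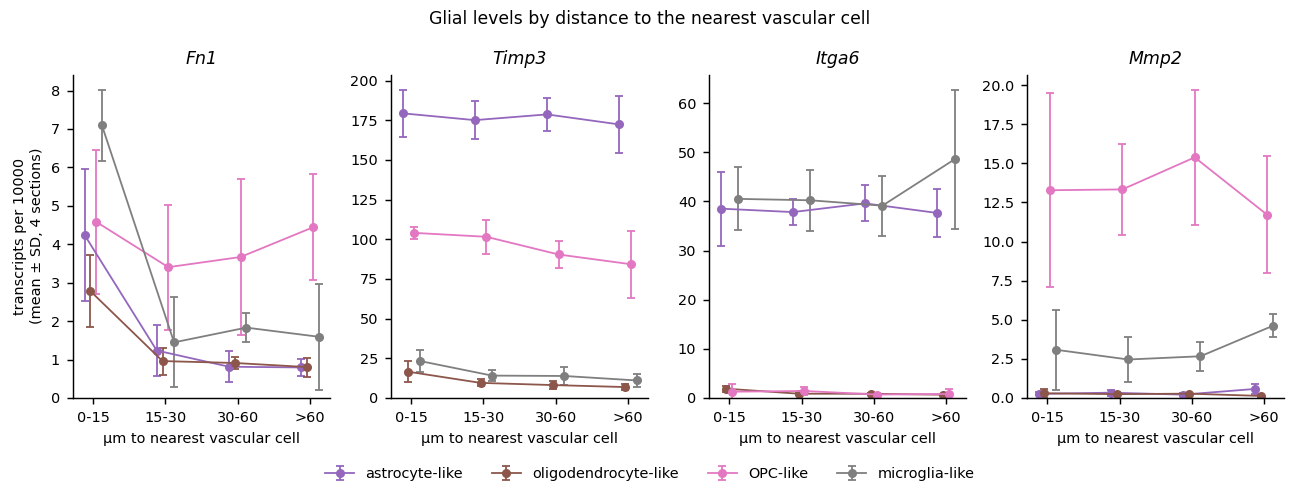
Level of Fn1, Timp3, Itga6 and Mmp2 (transcripts per 10000, mean ± SD of 4 sections) in 4 glial classes by the distance to the nearest vascular cell in µm. Fn1 is highest within 15 µm in astrocyte-like, oligodendrocyte-like and microglia-like cells, whereas Timp3 in astrocyte-like cells stays between 172 and 179.

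The second question was whether these levels changed from 2 to 18 months. Within each class, aged sections were compared with young ones by edgeR's quasi-likelihood test on summed counts, with Benjamini-Hochberg adjustment over all panel genes tested in the class. In the vascular classes 3 results passed the threshold of 0.05, Vwa1 and Col4a2 in endothelial-like cells and Vwa1 in fibroblast-like cells, and all were lower in aged sections. In the glial classes 2 passed, Vwa1 in astrocyte-like and Itga1 in oligodendrocyte-like cells, both lower as well. None of the 9 genes was called higher with age in any of the 8 classes, but few panel genes were. Of all genes tested, 3 of 379 were called higher in endothelial-like and 3 of 259 in pericyte-like cells. In oligodendrocyte-like cells 21 of 382 were, and in OPC-like cells 3 of 271. In smooth muscle-like, fibroblast-like, astrocyte-like and microglia-like cells no gene was called higher.

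**Figure D4:**
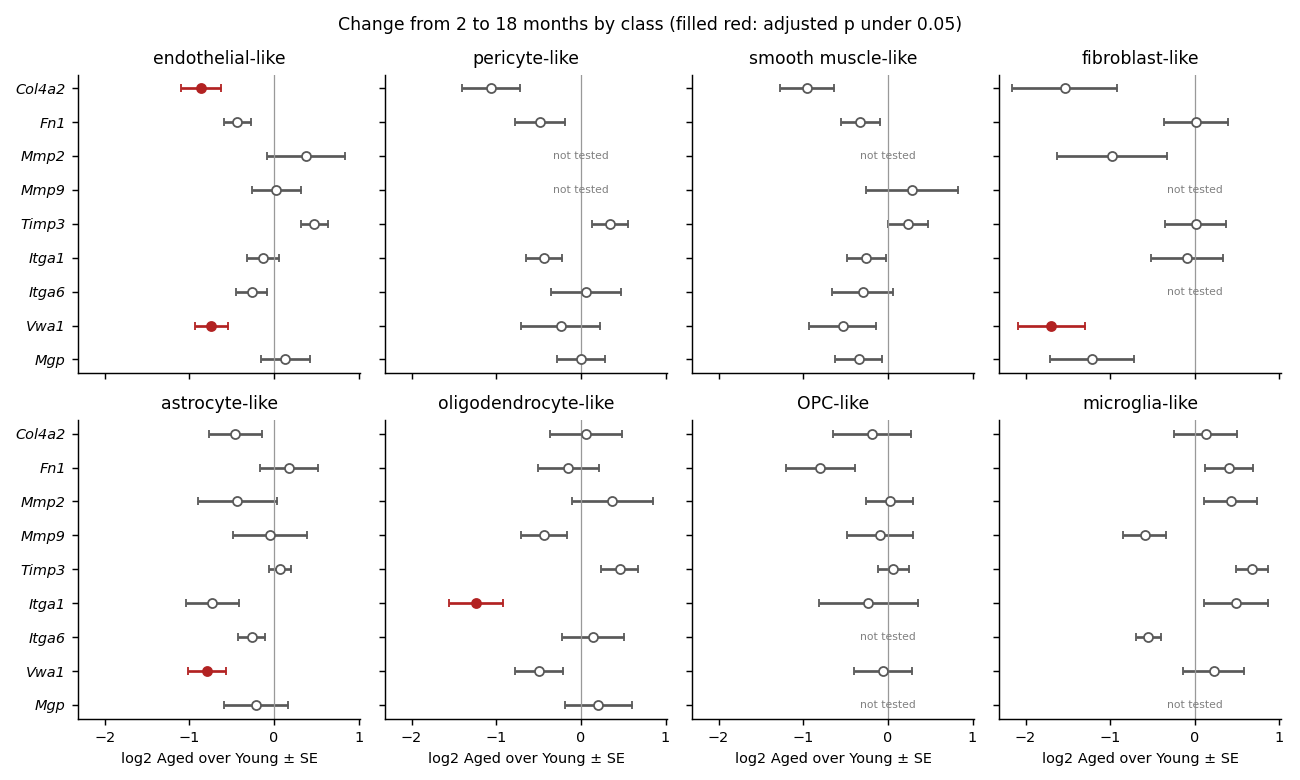
Change from 2 to 18 months (log2 Aged over Young ± SE, edgeR) of the 9 genes in 8 classes. Filled red points passed an adjusted p of 0.05; genes marked as not tested fell under the filter on low counts. The 5 red points lie between -1.70 and -0.74.

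Vwa1 and Col4a2, both basement membrane genes, were lower in aged endothelial-like cells. Vwa1 was 67.8 and 58.8 per 10000 in the young and 33.0 and 45.9 in the aged sections, a log2 change of -0.74 ± 0.19 (0.599 times, adjusted p = 0.00759 by edgeR). Col4a2 was 15.9 and 12.3 in the young and 7.10 and 9.01 in the aged sections, a change of -0.86 ± 0.24 (0.550 times, adjusted p = 0.0131 by edgeR). For both the young and aged sections did not overlap. The same held in this class for Fn1 and Itga6 (lower in the aged sections) and for Mmp2 and Timp3 (higher), none of which was called. The share of all panel genes without overlap was not counted, so no result is drawn from this. Of all genes tested in this class 2.37% were called (9 of 379), against 2 of the 9 members, and DESeq2 and limma each called both as well. In cells thinned to 100 transcripts, Vwa1 was detected in 47.6% and 41.7% of young and 28.8% and 35.8% of aged endothelial-like cells (51.2%, 46.0%, 26.1% and 37.7% before thinning), and Col4a2 in 15.6% and 11.8% of young and 7.23% and 8.09% of aged ones. Thinning left out between 972 and 1542 shallower cells a section. Endothelial markers in these cells summed to between 1161 and 1300 per 10000 over the 4 sections.

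Both endothelial changes kept their sign in 18 of 18 alternatives but not their call. Adjusted p-values ran from 0.00436 to 0.599 for Vwa1 and from 0.0131 to 0.599 for Col4a2. Without Young 1, Young 2, Aged 1 or Aged 2 they were 0.180, 0.0656, 0.599 and 0.144 for Vwa1 and 0.372, 0.0656, 0.599 and 0.190 for Col4a2, so each call was lost whichever section was left out. With the replicate number as a block they were 0.0284 for Vwa1 and 0.115 for Col4a2.

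The other members did not pass the test in endothelial-like cells. Timp3 was 118 and 116 per 10000 in the young and 181 and 160 in the aged sections (0.48 ± 0.16, adjusted p = 0.0875 by edgeR). Fn1 was 150 and 152 against 120 and 113 (-0.43 ± 0.16, adjusted p = 0.127 by edgeR). Itga1 (-0.13 ± 0.19), Itga6 (-0.27 ± 0.19), Mgp (0.14 ± 0.28), Mmp2 (0.38 ± 0.46) and Mmp9 (0.03 ± 0.29) differed by less than 2 SE.

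In mural cells no member passed the test. Of 7 members tested in pericyte-like cells 2 had an unadjusted p under 0.05 by edgeR, and of 8 in smooth muscle-like cells 1 did, while DESeq2 and limma called none. Over all genes 1.54% were called in pericyte-like cells (21 of 259 at an unadjusted p under 0.05) and 0% in smooth muscle-like cells (15 of 279 at an unadjusted p under 0.05). Col4a2 was 21.4 and 18.0 per 10000 in young and 9.11 and 10.5 in aged pericyte-like cells (-1.06 ± 0.35, adjusted p = 0.1003 by edgeR). In smooth muscle-like cells it was 30.8 and 21.2 against 10.7 and 15.4 (-0.96 ± 0.32, adjusted p = 0.652 by edgeR). With mixed cells kept, which takes the pericyte-like cells from 1427 to 4603, Col4a2 was called in both classes (-1.07, adjusted p = 1.23e-04, and -0.97, adjusted p = 0.00109), beside ranges over all alternatives of 1.23e-04 to 0.948 and 0.00109 to 0.805. Itga1 in pericyte-like cells was 188 and 172 against 136 and 141 (-0.44 ± 0.21, adjusted p = 0.486 by edgeR).

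Of the 5 called changes, that of Vwa1 in fibroblast-like cells was the largest. Vwa1 was 66.1 and 47.4 per 10000 in the young and 17.8 and 16.7 in the aged sections, from 108, 50, 18 and 30 transcripts in Young 1, Young 2, Aged 1 and Aged 2 (-1.70 ± 0.40, 0.308 times, adjusted p = 0.0377 by edgeR). It was the only gene called of 154 tested (0.649%), and 1 of 7 members tested. DESeq2 (adjusted p = 0.274) and limma (0.0601) did not call it. It was lower in aged sections in 16 of 16 alternatives, with adjusted p from 0.00141 to 0.998, and the call was lost without Young 1 (0.834), Aged 1 (0.253) or Aged 2 (0.338). The cells of this class had a mean volume of 472 and 507 µm³ in the young and 716 and 744 µm³ in the aged sections, and the part of this in the result was not tested. Col4a2 (-1.54 ± 0.62), Mgp (-1.22 ± 0.50) and Mmp2 (-0.98 ± 0.65) did not pass (adjusted p of 0.435, 0.435 and 0.892 by edgeR), and Timp3 gave 0.01 ± 0.36 and Fn1 0.01 ± 0.38. The summed vascular markers of these cells were 670 and 647 per 10000 in the young and 774 and 470 in the aged sections.

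Among the glia, Vwa1 in astrocyte-like cells was 12.96 and 9.55 per 10000 in the young and 5.96 and 7.42 in the aged sections (-0.79 ± 0.22, 0.579 times, adjusted p = 0.0457 by edgeR). Of all genes tested in this class 1.06% were called, and 1 of 9 members. The change kept its sign in 18 of 18 alternatives and its call in 4, with adjusted p from 0.0210 to 0.807. Without Young 1, Aged 1 or Aged 2 the adjusted p was 0.807, 0.792 or 0.0693, and DESeq2 and limma gave 0.0789 and 0.0549. Endothelial markers in these cells summed to 155 and 150 in the young and 168 and 141 in the aged sections. Timp3 in these cells was 159 and 181 against 183 and 184 (0.07 ± 0.13).

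In oligodendrocyte-like cells, Itga1 was 3.63 and 2.33 per 10000 in the young and 1.38 and 1.31 in the aged sections, from between 116 and 269 transcripts a section (-1.24 ± 0.32, 0.422 times, adjusted p = 0.0028 by edgeR). DESeq2 and limma also called it, and it was called in 13 of 18 alternatives with adjusted p from 0.00156 to 0.510. It was lost without Young 1 or Young 2, with mixed cells kept (0.510), in the striatum alone and with classes by marker score. This class changed more than the others, with 9.69% of all genes called, so 1 of 9 members is near the background. The summed vascular markers in these cells were 65.2 and 63.3 in the young and 102 and 86.0 in the aged sections. Most of that sum came from smooth muscle markers (52.2 and 50.6 in the young, 78.5 and 66.3 in the aged sections). Their part in the Itga1 values was not tested. Timp3 was 6.65 and 7.33 against 11.8 and 8.86 (0.46 ± 0.22, adjusted p = 0.214 by edgeR).

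No member was called in OPC-like or microglia-like cells by edgeR, where 3.32% and 0% of all genes were called. At an unadjusted p under 0.05 there were 32 of 271 genes in OPC-like and 63 of 361 in microglia-like cells. In OPC-like cells 7 members were tested and 1, Fn1, had an unadjusted p under 0.05 (-0.80 ± 0.41), and neither DESeq2 nor limma called one. Mmp2, which had its highest mean in this class, gave 0.02 ± 0.28. In microglia-like cells 8 members were tested and 3 had an unadjusted p under 0.05. Itga6 was 46.7 and 46.3 per 10000 against 36.1 and 33.6 (-0.55 ± 0.14, adjusted p = 0.184 by edgeR and 0.0323 by DESeq2, with a range of 0.0323 to 0.853 over 18 alternatives). Timp3 was 10.2 and 11.5 against 20.2 and 17.8 (0.68 ± 0.19, adjusted p = 0.190 by edgeR), higher in 18 of 18 alternatives and called in 1, the stricter rule on mixed cells (0.0432, with a range of 0.0432 to 0.683). The summed vascular markers in microglia-like cells were 35.4 and 37.0 in the young and 62.3 and 54.4 in the aged sections, and their part in the Timp3 values was not tested.

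The order of depth among the sections ran beside several of these values. Vwa1 and Col4a2 in endothelial-like cells and in astrocyte-like cells fell in the exact order of depth, from Young 1 over Young 2 and Aged 2 to Aged 1, and so did Col4a2 in pericyte-like and smooth muscle-like cells, Itga1 in pericyte-like cells, Itga6 in astrocyte-like cells, Mmp2 in fibroblast-like cells and Mmp9 in microglia-like cells. Of all genes tested, 6.60% fell in this order in endothelial-like cells, 5.05% in astrocyte-like, 4.25% in pericyte-like, 6.09% in smooth muscle-like, 9.09% in fibroblast-like and 4.71% in microglia-like cells. Timp3 rose as depth fell in oligodendrocyte-like and microglia-like cells, as did Itga1 in microglia-like cells, beside 11.3% and 10.2% of all genes tested in these classes. Neither order held for Vwa1 in OPC-like cells, which was 5.80, 5.62, 5.12 and 6.09 in Young 1, Young 2, Aged 1 and Aged 2 from between 32 and 40 transcripts, and in medium spiny neuron-like cells it was 5.96, 3.41, 2.25 and 6.46.

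**Figure D5:**
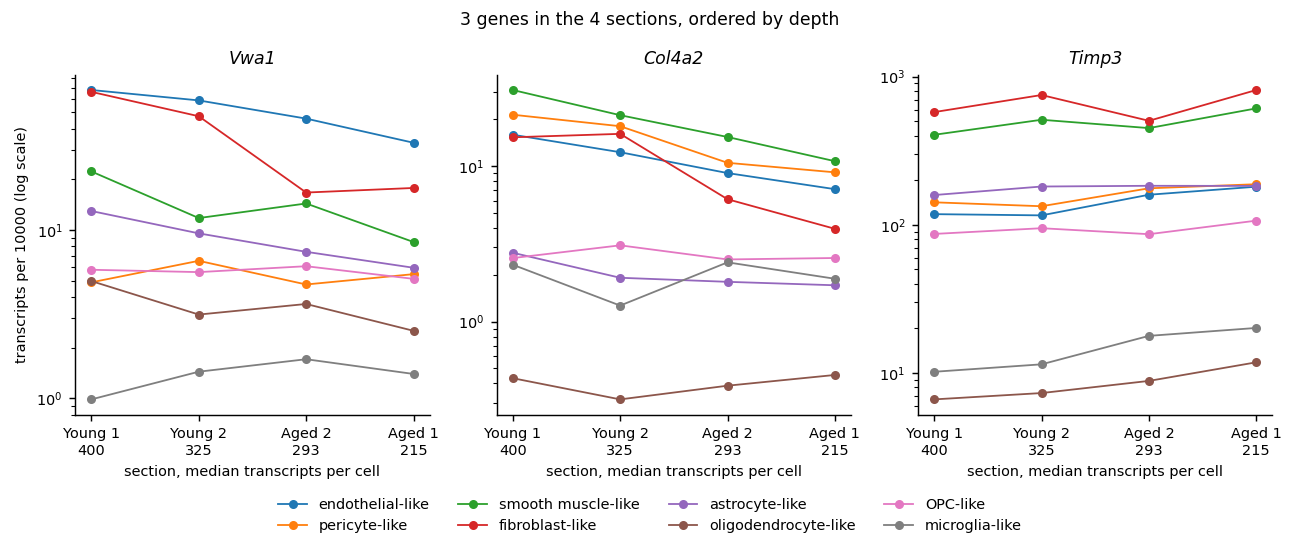
Level of Vwa1, Col4a2 and Timp3 (transcripts per 10000, log scale) in 8 classes, with the 4 sections ordered by median transcripts per cell. In endothelial-like cells Vwa1 falls from 67.8 to 33.0 and Col4a2 from 15.9 to 7.10 in the order of depth, while Vwa1 in OPC-like cells stays between 5.12 and 6.09.

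Whether a change with age differed between classes was tested by the interaction of class and age in 1 fit over the 8 classes (edgeR, section as a block). None of the 9 members passed in any of 3 contrasts, beside 0.533%, 1.6% and 0.8% of all genes for endothelial minus mural, fibroblast minus endothelial and endothelial minus astrocyte change. At an unadjusted p under 0.05 there were 0, 2 and 1 members, beside 28, 59 and 31 of the 375 genes tested. The change of Vwa1 in fibroblast-like minus that in endothelial-like cells was -0.86 ± 0.34 (adjusted p = 0.217 by edgeR) and that of Mgp -1.30 ± 0.58 (adjusted p = 0.271). Fn1 gave -0.68 ± 0.28 for endothelial minus astrocyte change (adjusted p = 0.358 by edgeR). The fall of Vwa1 in endothelial-like cells was thus not shown to differ from that in astrocyte-like cells (-0.06 ± 0.25) or mural cells (-0.41 ± 0.28).

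A list of 15 other genes of the panel that encode matrix proteins, matrix enzymes, their inhibitors, receptors or regulators gave a wider view (among them Mmp3, Mmp13, Spock2, Spock3, Thbs4, Vtn, Tnr, Itih3, Itih5, Tnfaip6, Itgam, Tgfb1, Tgfb3 and A2m). With age, none of 15, 7, 10 and 5 tested was called by edgeR in endothelial-like, pericyte-like, smooth muscle-like and fibroblast-like cells. At an unadjusted p under 0.05 there were 2, 0, 0 and 0, beside 43 of 379, 21 of 259, 15 of 279 and 10 of 154 of all genes. None of 14, 9 and 13 was called in astrocyte-like, OPC-like and microglia-like cells. Here 1, 2 and 3 had an unadjusted p under 0.05, beside 40 of 376, 32 of 271 and 63 of 361 of all genes. The list's median change in endothelial-like cells was 0.23, beside -0.13 for the 9 members and 0.01 for all genes tested. In fibroblast-like cells the medians were -0.12, -0.98 and -0.11. In oligodendrocyte-like cells 3 of 15 were called, Spock3, a matrix proteoglycan (0.75 ± 0.18, adjusted p = 0.00118), and Itih5, a hyaluronan-binding heavy chain (0.74 ± 0.24, adjusted p = 0.0306), higher and the proteinase Mmp3 (-1.04 ± 0.37, adjusted p = 0.0497) lower.

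Between classes, genes of the list were called in both directions. Of 14 tested, 4 were higher in vascular than in glial cells, among them Vtn (6.89 ± 0.11), which is also one of the pericyte markers, Itih5 (4.30 ± 0.11) and Spock2 (1.20 ± 0.08), and 5 were lower, of which Tnfaip6 differed most (-3.11 ± 0.27). The median difference was -0.10 for the list, 2.95 for the 9 members and -0.12 for all genes. Endothelial-like and mural cells differed in 5 of 14, with Spock2 (2.79 ± 0.11) and Spock3 higher and Vtn, Tgfb3 (-2.96 ± 0.18) and A2m lower in endothelial-like cells. Fibroblast-like cells were higher than endothelial-like cells in 5 of 14, among them the protease inhibitor A2m (3.41 ± 0.30), and lower in 3, and against mural cells they were higher in 2, A2m and Itih5, and lower in 5. Astrocyte-like cells were higher than the other glia in 4, with Itih3 (4.54 ± 0.16) and Thbs4 (3.47 ± 0.16) foremost, and lower in 3.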

How the data were processed

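MERFISH data of 4 sections (2 young, 2 aged, grouped by title and age label) were used. The authors decoded transcripts with MERLIN and segmented cells with Vizgen software. As deposited, the 4 tables hold raw counts for every segmented cell, neither normalized nor filtered, and the deposited cell volume is a signal in µm³. A deposited table of means per cell served only to check that files were read correctly. Labels inside the young files carry other numbers than their titles.

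Cells with under 10 genes or 50 µm³ were dropped, as in the study's methods, which left 68011, 70774, 68415 and 74624 cells with 36035355, 31172121, 18765491 and 29004185 transcripts in Young 1, Young 2, Aged 1 and Aged 2. Counts per volume, scaled to 10000 and log-transformed, were clustered without the 9 genes (15 components, 20 neighbours, Louvain 0.08, igraph 0.11.9), again at 0.5 in every cluster, and once more in 2 vascular clusters with macrophage markers. The extent of the repeated clustering and the naming limits (median marker fold of 2, at least 3 markers at 1.5-fold) were set after seeing the data, and all class names are rebuilt. No doublet caller was run; mixed cells were left out instead. The members and lists were chosen with earlier results of these data known. Named are the 9 members, the 2 panel genes most alike to each over classes (Pearson r of log2 levels plus 0.1), the matrix list, and markers beside a result. Some genes that this rule names are not reported here.

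Counts were summed per class and section and tested with edgeR 4.0.16 (TMM within a class, panel totals between classes, filterByExpr), checked on simulated counts, with DESeq2 1.42.0 and limma 3.58.1 as alternatives (R 4.3.3, Python 3.11.15, scikit-learn 1.9.0). An SE is the log2 change over the square root of its F. Normalization, filter, test, mixed-cell rule, region, clustering, class assignment, replicate block and each section in turn were varied.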

Additional observations from a re-analysis of the deposited data

How the results depend on the processing

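Of 136 differences and changes of single genes, testing without the filter on low counts moved none across its threshold, and no other normalization, test, region, mixed-cell rule or left-out section reversed a called direction. The count of members called with age in the vascular classes (3) was 1 with panel totals as library size, 5 with mixed cells kept (Col4a2, Fn1 and Vwa1 in pericyte-like, Col4a2 and Vwa1 in smooth muscle-like cells), 1 with the stricter mixed rule, 0 in the striatum alone, 0 with the second clustering at resolution 1.0, and from 0 to 1 without one section. It was 2 by DESeq2, by limma and with the replicate block. The count in the glial classes (2) was 1 with panel totals, limma, resolution 1.0, the replicate block or cell volume as library size. It was 0 with mixed cells kept or classes by marker score, and lower whichever section was left out. In the striatum alone it was also 1, but for a member not called above. Vwa1 in astrocyte-like and Itga1 in oligodendrocyte-like cells were both lost there. None of the age calls reported above was thus made in the striatum alone, where fibroblast-like cells could not be tested. The replicate numbers share only a number: differences between replicates 1 and 2 correlated across ages at r = -0.22 to -0.009 over the 8 classes. With the numbers crossed, an alternative added after seeing the data, the counts were 1 and 1. Members called between fibroblast-like and mural cells (6) were 3 at resolution 1.0 and 1 by marker score, those between endothelial-like and mural cells (4) were 7 by marker score, and members with a class by age interaction (0) were 1 with mixed cells kept (Timp3), by marker score (Vwa1) and with the broad fibroblast class (Fn1). The cause of these differences was not tested.

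Reversals came with other class borders. By marker score, which keeps no cluster, the endothelial against mural differences were 1.28 for Timp3, 1.40 for Col4a2 and 2.10 for Itga1, fibroblast against endothelial -0.40 for Mgp and -1.63 for Timp3, fibroblast against mural -0.34 for Timp3 and -0.098 for Vwa1, and astrocyte against other glia 1.09 for Fn1. Vwa1 in fibroblast-like against mural cells was -0.072 at resolution 1.0, and Itga6 there was 0.39 with the broad fibroblast class. That class, skipping the third clustering and cell volume as library size in the age tests were added after seeing the data. No fibroblast-like value could be had in the striatum alone, where too few of these cells lie, or without the third clustering. Depth limits Mmp2, Mmp9 and the fibroblast-like values, with under 30 transcripts a section for Mmp2 and Col4a2 in that class.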

Other observations

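Outside the 8 classes, border macrophage-like cells (599 kept cells, named from Mrc1, Pf4, Ms4a7, Lyz2 and Dab2) held 293 ± 33.6 Timp3 and 73.7 ± 13.01 Fn1 per 10000, with 27.5 ± 5.34 Mgp and 25.0 ± 5.83 Itga1. Their own markers summed to between 180 and 326 per 10000, below their summed endothelial, pericyte and smooth muscle markers (543 to 583). In every section but Young 1 their own markers were also below their astrocyte markers. Their pericyte markers summed to between 187 and 233 and their astrocyte markers to between 270 and 418 per 10000, and the part of these in the values was not tested. Mmp9 in these cells was 16.6, 5.73, 3.59 and 2.12 in Young 1, Young 2, Aged 1 and Aged 2, from 42, 17, 9 and 6 transcripts, a comparison between ages that was not tested.

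Ependymal-like cells (1096), which line the ventricles, held 187 ± 32.7 Timp3, above the 177 ± 11.9 of astrocyte-like cells with overlapping ranges, and 6.70 ± 2.36 Col4a2, but little Vwa1 (1.71 ± 0.953) and Fn1 (2.82 ± 0.610). Neuroblast-like cells held 4.12 ± 1.36 Col4a2, with each other member but Timp3 (9.35 ± 1.55) under 4 on average. Medium spiny neuron-like cells, the largest named neuronal class, held 8.15 ± 2.26 Timp3, 4.52 ± 2.02 Vwa1 and 1.86 ± 0.531 Col4a2, and under 1.2 of every other member on average.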
